A study of Homo sapiens with 8 samples.

Results

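The 6 genes described here control how a cell takes in glucose and whether the carbon is burned in mitochondria: the arrestin-like genes TXNIP and ARRDC4, the glucose transporter genes SLC2A3, SLC2A14 and SLC2A4, and the kinase gene PDK4. They were taken by symbol from the deposited table, and 6 of 6 symbols were found among its 1950 genes. RNA was sequenced from K562, an established human chronic myeloid leukemia line, in 2 groups of 4 libraries. The extract group was grown with CPM, the initials of the medicinal plant stem Caulis Polygoni Multiflori that the series title names, at 80 µg/mL for 3 days. The control group was grown without it in the same serum-containing medium, and no culture time is given for it. The libraries are called by their numbers in the labels, extract 1 to 4 and control 2 to 5. The labels do not say whether libraries within a group were grown separately, so the replicate spread behind each p-value may be technical and p-values reach no further than these libraries. The series title places the study in the question of how the plant acts on megakaryocyte and platelet formation.

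The members were chosen by their deposited fold changes and library values in this comparison, and the table itself lists only genes that the authors' test had already picked. Each listed gene had a p-value of at most 0.0499 and an absolute log2 fold change of at least 0.5851 in the authors' deposited table, and the member nearest that lower limit was TXNIP at 0.72. The differences between extract and control given below are therefore a description and carry no test of the members. A level of RNA in a bulk library cannot tell fewer expressing cells from less RNA per cell. Of the 16 erythroid and K562 markers looked for, HBZ alone was in the table, so the identity of the line could not be checked further from these values.

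Glucose crosses the plasma membrane through facilitative carriers of the SLC2A family, which differ in affinity and in how they are regulated. When glucose enters and is phosphorylated, the factors MondoA and ChREBP, each bound to MLX, activate genes through paired E-box-like elements called carbohydrate response elements. TXNIP and ARRDC4 are textbook targets of that response, and their products, alpha-arrestins, lower glucose uptake by promoting removal of transporters from the cell surface. TXNIP also binds thioredoxin. PDK4 phosphorylates the pyruvate dehydrogenase complex and so holds pyruvate back from the citric acid cycle. It is a well-known target of FOXO and PPAR factors.

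The promoters of TXNIP and ARRDC4 are shown because both genes were higher with the extract and both are known targets of the glucose response, whose motif was searched for here. The sequences are the 250 bases before the RefSeq start (GRCh38.p14), read 5′ to 3′ on the gene's strand. TXNIP is at chr1:145996580-145996829 on the minus strand and ARRDC4 at chr15:97960453-97960702 on the plus strand. In TXNIP the capitals mark a paired motif, CACGNG repeated after 5 bases, and a match to the FOXO motif GTAAACA. Further CACGNG matches in TXNIP, beginning 163 and 55 bases before the start, are left in lower case. In ARRDC4 the capitals mark matches of CACGNG on either strand.
TXNIP: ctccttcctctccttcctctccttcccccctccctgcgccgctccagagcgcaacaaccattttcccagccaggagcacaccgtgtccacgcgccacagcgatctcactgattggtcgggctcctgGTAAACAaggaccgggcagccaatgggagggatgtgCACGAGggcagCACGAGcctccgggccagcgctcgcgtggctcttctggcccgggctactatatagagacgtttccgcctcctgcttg
ARRDC4: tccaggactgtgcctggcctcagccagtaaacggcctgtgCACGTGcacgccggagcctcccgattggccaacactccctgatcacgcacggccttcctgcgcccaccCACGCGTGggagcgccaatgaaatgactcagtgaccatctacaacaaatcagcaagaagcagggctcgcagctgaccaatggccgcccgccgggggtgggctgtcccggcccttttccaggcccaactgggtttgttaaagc

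The TXNIP promoter held the paired motif, with the letters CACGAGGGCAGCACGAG beginning 88 bases before the start. Motifs were searched on both strands over windows from 250 bases before to 50 bases after each start, and this pair was found in 20 of 35116 RefSeq windows, or 0.057%. The 20 windows belonged to 20 genes, of which 2 were in the deposited table. The other was RCN3, a calcium-binding protein gene named here after its values were seen, which was lower with extract, at 7.57 ± 0.77 in control and 4.28 ± 0.111 with extract (SD, n = 4 each). A single arm, CACGNG, is common and occurred in 30.5% of all windows, the arms of the pair included.

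ARRDC4 did not hold the pair in this window. It had the E-box CACGTG, which is a form of CACGNG, beginning 210 bases before the start, and a pair of overlapping CACGNG matches beginning 142 and 140 bases before it. CACGTG was present in 7.26% of all windows. The FOXO motif GTAAACA, present in 3.42% of windows, began 124 bases before the TXNIP start. It was not found in the windows of ARRDC4, PDK4 or SLC2A14, which says only that these letters are not there. The SLC2A14 window lies at a RefSeq start inside the gene as GENCODE annotates it. The PPAR motif, AGGTCA repeated after 1 base, and a MEF2 motif were found in 0.0228% and 0.128% of all windows and had no match in those of the members. The short hypoxia motif ACGTG, contained in CACGTG and present in 21.4% of windows, matched in ARRDC4, in SLC2A14 and at a second, internal TXNIP start. RefSeq windows were matched for 4 of the 6 members, and SLC2A3 and SLC2A4 were not used in the motif search.

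TXNIP and ARRDC4 were both higher with the extract, by close to the same factor. TXNIP (chromosome 1, 145992435 to 145996600, GRCh38, GENCODE release 29) had deposited expression values of 104.03, 102.04, 99.71 and 102.02 in control 2 to 5 and of 164.93, 163.48, 162.58 and 158.80 in extract 1 to 4. The unit of these values is not given in the sources used here. All 4 extract libraries lay above all 4 control libraries, with 54.77 between the nearest values of the groups. The means were 102 ± 1.77 and 162 ± 2.62 (SD, n = 4 each), a ratio of means of 1.59.

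ARRDC4 (chromosome 15, 97960698 to 97973838), the closest relative of TXNIP in this set, had values of 9.88, 9.81, 9.58 and 9.47 in control 2 to 5. The extract libraries had 16.38, 14.82, 15.68 and 15.31. The groups did not overlap, and extract 1 was the highest library of ARRDC4 as it was of TXNIP. The means were 9.69 ± 0.192 and 15.5 ± 0.657 (SD, n = 4 each), a ratio of 1.61. The log2(value + 1) scale adds a pseudocount of 1 before the logarithm. On it the extract minus control difference was 0.67 (SE 0.0261) for TXNIP and 0.63 (SE 0.0517) for ARRDC4. The SEs here and below are from the limma fit described below, which moderates each gene's spread by that of other genes. Whether the 2 differences are equal was not tested. No other arrestin gene was listed: of 10 genes of the arrestin list 2 were in the table, and these were the 2 members.

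**Figure D1:**
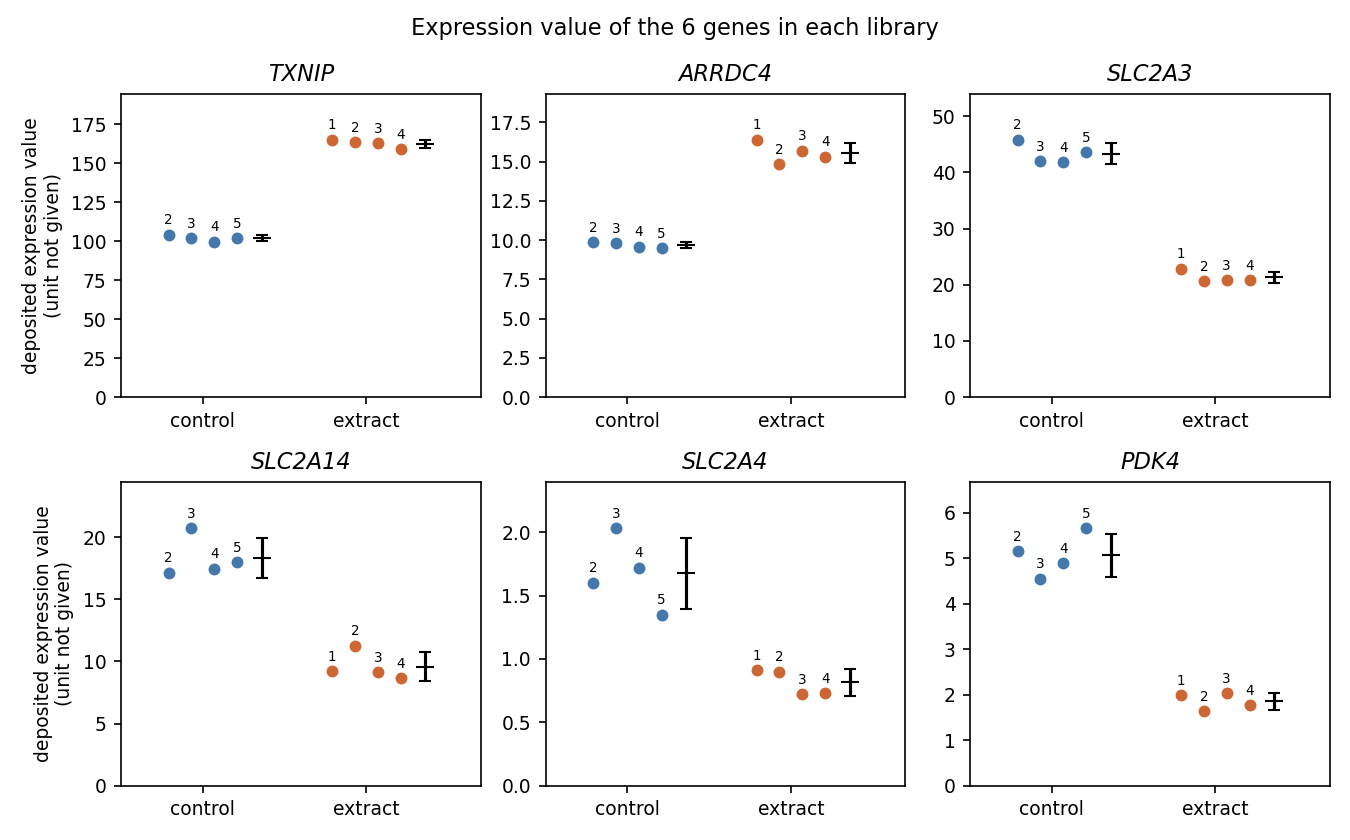
Deposited expression value (vertical axis, unit not given, from 0) of each gene in the 4 control and 4 extract libraries, numbered as in the labels. Black marks are the group mean with its SD. TXNIP and ARRDC4 lie higher with extract, the other 4 genes lower, and the groups overlap in none of the 6.

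The transporter genes were lower with the extract. SLC2A3 (chromosome 12, 7919230 to 7936275), which codes for the high-affinity carrier GLUT3, had values of 45.80, 41.95, 41.84 and 43.60 in control 2 to 5 and 22.85, 20.64, 20.86 and 20.86 in extract 1 to 4. The lowest control and the highest extract library were 18.99 apart. The means were 43.3 ± 1.85 and 21.3 ± 1.04 (SD, n = 4 each), so that the control level was 2.03 times that with extract.

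SLC2A14 (chromosome 12, 7812512 to 7891148) codes for GLUT14, a carrier that arose by duplication of SLC2A3 and is best known from testis. Its values were 17.16, 20.72, 17.47 and 18.00 in control 2 to 5 and 9.21, 11.27, 9.12 and 8.67 in extract 1 to 4. Control 3 and extract 2 were the high libraries of their groups, and the groups did not overlap. The means were 18.3 ± 1.63 and 9.57 ± 1.16 (SD, n = 4 each), a control level 1.92 times that with extract. In SLC2A3 the same extract 2 was the lowest library of its group. Of 12 testis germ cell markers 1 was in the table, SYCP3, at 0.47 or less in every library.

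The genes lie side by side on the minus strand, 28081 bases apart, and their coding sequences are nearly the same, so that reads may be shared. Over 1491 aligned coding bases of the longest coding transcripts in GENCODE release 29, 1443 were identical (96.8%) and 48 differed. The longest identical run was 137 bases. Of the distinct 50-base stretches in all annotated SLC2A3 transcripts, 15.3% also occurred in SLC2A14, and of those of SLC2A14 16.0% occurred in SLC2A3. At 100 bases the shares were 4.19% and 4.24%. How the authors' counting dealt with such reads is not given in the sources used here, and the split of reads between these genes is uncertain. TXNIP and ARRDC4 shared no 50-base stretch with any other annotated transcript.

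The stretch of 120 coding bases with the most differences is printed to show where reads can tell the genes apart. It covers bases 552 to 671 of the SLC2A3 coding sequence (chr12:7930482-7930601, minus strand, GRCh38) and bases 669 to 788 of that of SLC2A14 (chr12:7828706-7828825, minus strand), within a single exon of each. Capitals mark the 10 positions that differ.
SLC2A3: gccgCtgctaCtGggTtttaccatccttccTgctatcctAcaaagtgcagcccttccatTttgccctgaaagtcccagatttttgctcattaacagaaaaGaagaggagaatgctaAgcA
SLC2A14: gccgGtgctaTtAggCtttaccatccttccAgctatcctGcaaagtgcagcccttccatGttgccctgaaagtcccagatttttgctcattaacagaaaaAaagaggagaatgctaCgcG

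**Figure D2:**
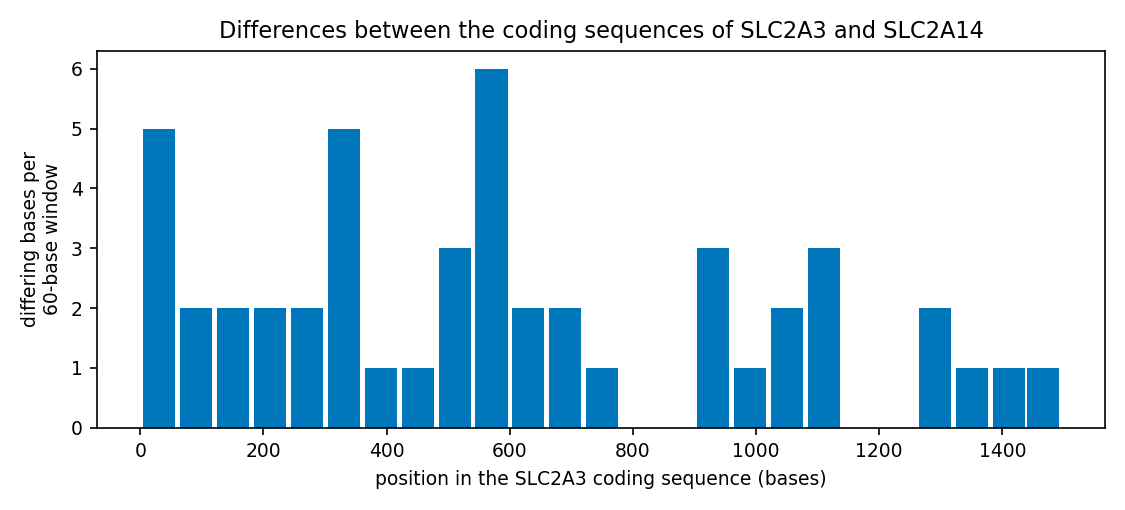
Number of differing bases (vertical axis) between the aligned coding sequences of SLC2A3 and SLC2A14 in successive 60-base windows along the SLC2A3 coding sequence (horizontal axis, bases from the first coding base). The highest window has 6 differences, and 4 of the 25 windows have none.

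SLC2A4 (chromosome 17, 7281667 to 7288257) codes for GLUT4, the carrier that insulin brings to the surface of muscle and fat cells. It was near the low end of the values analysed, at 1.60, 2.03, 1.72 and 1.35 in control 2 to 5 and 0.91, 0.90, 0.72 and 0.73 in extract 1 to 4. The groups did not overlap, but the nearest libraries, control 5 and extract 1, were only 0.44 apart. The means were 1.68 ± 0.282 and 0.815 ± 0.104 (SD, n = 4 each), a control level 2.06 times that with extract. On the log2(value + 1) scale the difference was −0.56 (SE 0.103), against −1.04 for the log2 ratio of means, because the pseudocount is as large as the values. SLC2A4 passed the filter on low values through the control libraries alone, so a difference was built into its passing. An antisense gene overlaps 1125 bases of the SLC2A4 gene span, and without knowledge of strand reads from there cannot be told apart. By gene span 5 annotated genes also overlap SLC2A14, the longest overlap being 519 bases. Whether these overlaps fall in exons was not examined. None (0) of 15 skeletal muscle and fat markers was in the table.

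PDK4 (chromosome 7, 95583499 to 95596491) had the largest ratio between the group means of the 6 genes in the values as deposited. Its difference on the log2(value + 1) scale was also the largest before centring. After the median centring described below, on that scale, TXNIP (0.93) and ARRDC4 (0.90) differed by more than PDK4 (−0.82). The pseudocount shrinks the difference of PDK4 more than those of TXNIP and ARRDC4, since PDK4 has lower values. The PDK4 values were 5.16, 4.55, 4.89 and 5.66 in control 2 to 5 and 1.99, 1.64, 2.03 and 1.77 in extract 1 to 4. Every control library was above every extract library, by at least 2.52. The means were 5.07 ± 0.469 and 1.86 ± 0.185 (SD, n = 4 each), a control level 2.73 times that with extract. The difference was −1.08 (SE 0.0949) on the log2(value + 1) scale and −1.45 as a log2 ratio of means. PDK4 was the 1 gene in the table of the 16 genes for the pyruvate dehydrogenase complex, its kinases and phosphatases, and the pyruvate carrier.

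The spread between libraries was smallest for TXNIP and ARRDC4 and widest for SLC2A4. It did not simply follow level. In control SLC2A14 had a higher mean than ARRDC4 (18.3 against 9.69) and a wider spread. The SD was 1.73% of the mean in control and 1.61% with extract for TXNIP, and 1.99% and 4.23% for ARRDC4. For SLC2A3 it was 4.28% and 4.87%, for PDK4 9.25% and 9.94%, for SLC2A14 8.87% and 12.1%, and for SLC2A4 16.9% and 12.8%. The median over all 750 tested genes was 17.7% in control and 18.3% with extract. All 6 genes were thus below the median spread in both groups, SLC2A4 in control by little. The members were chosen by values in these same libraries, and the median was not matched for level. Nothing about the members is read from this. Depth is unknown for these libraries, and the part of the spread that comes from counting cannot be given.

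Genes with the most similar profiles were found by centring each gene's log2(value + 1) values and taking the root mean square difference over the 8 libraries, among 570 other tested genes with a symbol. Closest to TXNIP was ARRDC4, with a difference of 0.0392, and closest to ARRDC4 was TXNIP. MSMO1, a cholesterol synthesis gene, came next for TXNIP (0.0617) and APC2 next for ARRDC4 (0.0566). Closest to PDK4 was SLC2A3 (0.0887), ahead of the selenoprotein gene SELENOW (0.113). The converse did not hold, because PDK4 was the 6th gene from SLC2A3, behind MYEOV (0.0645), the annexin gene ANXA1 (0.0805) and others. SLC2A3 and SLC2A14, neighbours in the genome, were less alike than this: SLC2A14 was 41st from SLC2A3, and SLC2A14 was closest to RHOB and HLA-E (0.0900 and 0.0918). SLC2A4 was closest to the thrombin receptor gene F2R and to CD68 (0.0805 and 0.0820). All listed genes share the difference between the groups that put them in the table. Likeness here is mostly likeness in the size of that difference on the log2(value + 1) scale. The pseudocount makes that size smaller for low genes such as PDK4 and SLC2A4. By control over extract ratio of means, SLC2A4 (2.06) was nearer to SLC2A3 (2.03) than PDK4 (2.73) was.

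**Figure D3:**
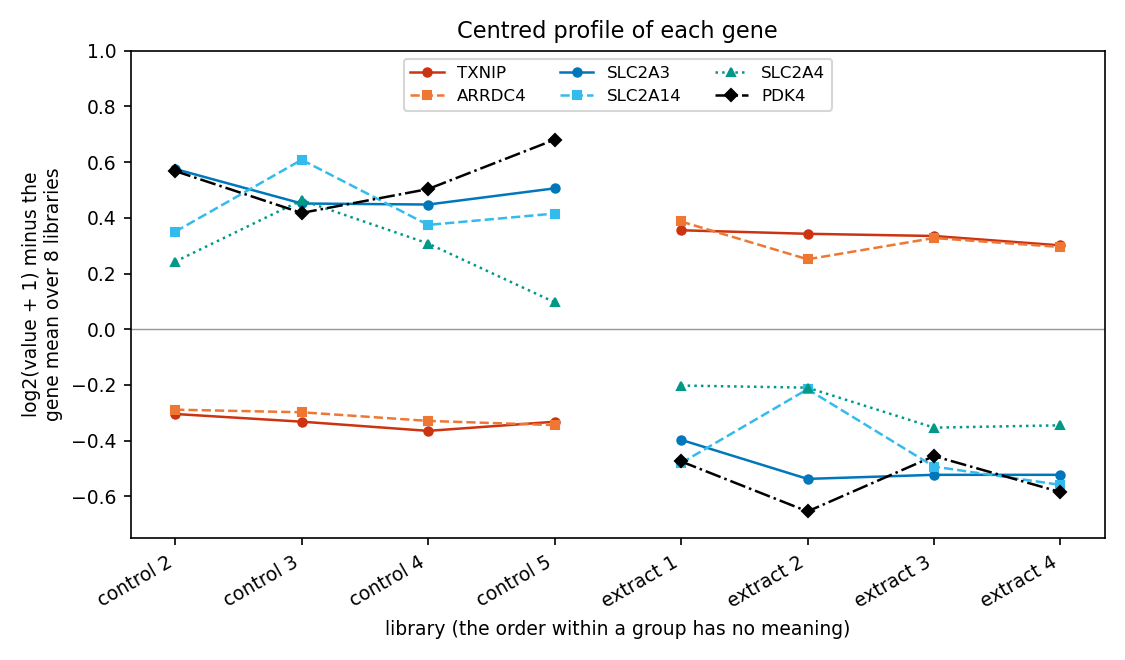
Centred log2(value + 1) (vertical axis) of the 6 genes in the 8 libraries (horizontal axis). TXNIP and ARRDC4 run together at 0.0392 root mean square difference. SLC2A14 departs from SLC2A3 most in extract 2 (−0.22 against −0.54). Control 2 (0.35 against 0.58) and control 3 (0.61 against 0.45) follow.

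Among all tested genes, most were called as different, which follows from how the table was made. The limma test took genes that reached 1 in 4 or more libraries. Adjusted p under 0.05 was reached by 82.8% of these 750 genes, with 201 (26.8%) higher and 420 (56.0%) lower with extract. All 6 members passed the filter and all 6 were among the calls, 2 higher and 4 lower, counts from which nothing is read. Groups did not overlap in 67.7% of tested genes, 21.9% with extract higher and 45.9% with extract lower, beside 6 of 6 members. In the authors' deposited table an adjusted p under 0.05 was given for 45.9% of the 1950 genes, 18.3% higher and 27.7% lower, and for all 6 members. By p-value in that table SLC2A3, TXNIP, ARRDC4, PDK4, SLC2A14 and SLC2A4 were at ranks 9, 10, 47, 74, 148 and 451. The library median of log2 values averaged 2.17 in control and 1.90 with extract, a shift of −0.27. After each library was centred on its median the split was 228 higher and 241 lower. Relative to that shift the difference was 0.93 for TXNIP, 0.90 for ARRDC4, −0.72 for SLC2A3, −0.61 for SLC2A14, −0.29 for SLC2A4 and −0.82 for PDK4. The medians were taken over the tested genes, which the authors' test had picked and of which more were lower than higher. They are therefore no neutral reference for scaling.

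**Figure D4:**
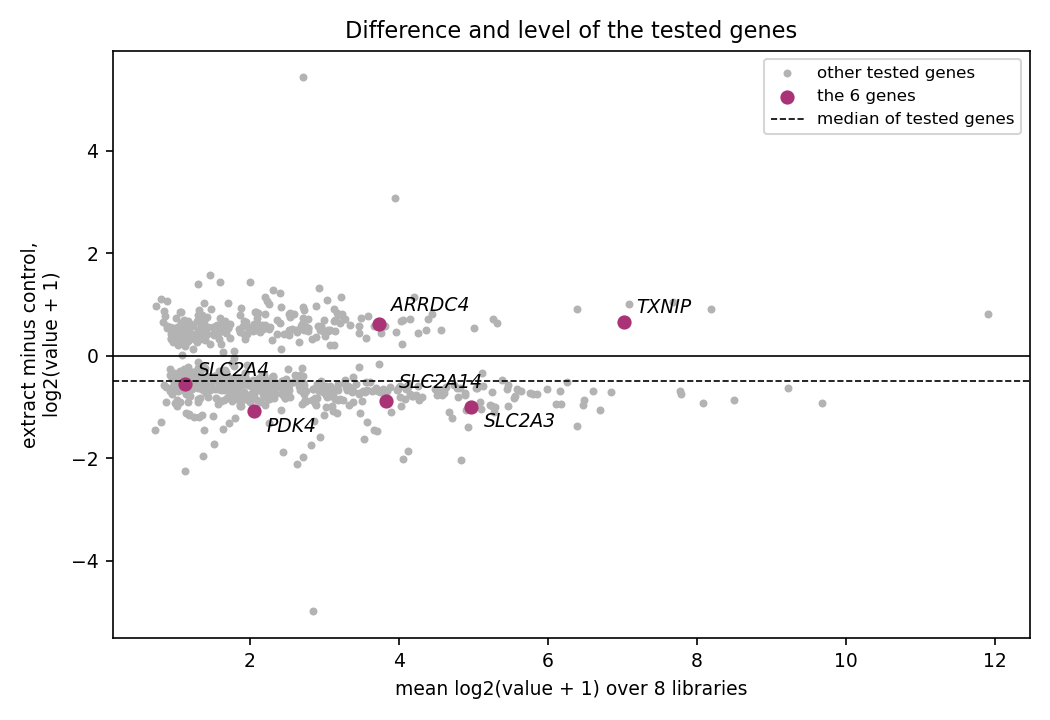
Extract minus control difference in log2(value + 1) (vertical axis) against the mean log2(value + 1) over 8 libraries (horizontal axis) for the 750 tested genes, with the 6 genes in colour. The dashed line is the median difference of the tested genes, −0.50, and few genes lie near 0.

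Few other genes of glucose handling were in the table. Of 242 genes in 13 lists of transport, glycolysis, pyruvate and glucose signaling, 21 were listed and 12 tested, 6 of these being the members. Of the other 6 tested genes 3 were called higher and 3 lower, with limma adjusted p over all tested genes. Of these, 2 (IRS1 and CPT1C) passed the filter through 1 group alone. All 6 had already been picked by the authors' test on the same libraries, so their p-values are no independent support. The median difference of the 12 was −0.45 and that of all tested genes −0.50. None was listed (0) of 31 glycolytic enzymes, 17 glycogen genes and 16 genes of the thioredoxin system, the partner of TXNIP. A gene that is not listed did not pass the authors' limits, which does not show that it was unexpressed or unchanged. How many genes the authors tested is not known here, so no share over all genes can be set beside these counts. Of 18 SLC2A and SLC5A transporter genes 4 were listed, the 3 members and SLC5A2, a sodium-glucose carrier at 0.87 or less in every library that was not tested. From the list of MondoA and ChREBP factors and targets, TXNIP and ARRDC4 were 2 of 2 genes listed out of 19.

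SLC16A3, which codes for the lactate exporter MCT4, fell from 5.51 ± 0.927 to 2.36 ± 0.70 (SD, n = 4 each), by 0.96 on the log2 scale (limma adjusted p = 0.0013), and its groups did not overlap. H6PD, the hexose-6-phosphate dehydrogenase of the endoplasmic reticulum, rose from 1.30 ± 0.191 to 2.02 ± 0.215 (limma adjusted p = 0.00805). That call was lost with libraries 2 to 4 paired by number (limma adjusted p = 0.0698). Of 20 hypoxia targets 3 were listed, SLC2A3 and the carbonic anhydrase genes CA9 and CA12. CA9 was at 0.19 or less in every library and CA12 at 1.01 or less, and neither was tested.

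From the list of insulin signaling to GLUT4 vesicles, 3 of 25 genes were listed and 1 was tested. IRS1, an adaptor of the insulin receptor, was at 0.55 ± 0.102 in control and 1.82 ± 0.363 with extract (SD, n = 4 each). It passed the filter through the extract libraries alone, so a difference was built into its passing and its filtered call is no support. In the fit without a filter the limma adjusted p was 0.000926. Every listed gene had already been picked by the authors' test on these libraries, so this p-value is no support either. IRS2, a second adaptor and a FOXO target, did not pass the filter, with 1.36, 1.14, 0.85 and 1.17 in control 2 to 5 and 0.64, 0.68, 0.64 and 0.65 in extract 1 to 4. All 4 control libraries were above the extract libraries.

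The FOXO target list had 9 of its 25 genes in the table, 7 lower and 2 higher in the authors' deposited table, with TXNIP and PDK4 on opposite sides. By the group means 6 were lower and 3 higher, because PCK1 changed sides. Of all 1950 listed genes 1100 (56.4%) were lower and 850 higher in the authors' deposited table. Of the 3 that were tested 1 was called higher and 2 lower, with a median difference of −0.35, beside 26.8% and 56.0% called higher and lower and a median of −0.50 over all tested genes. Nothing particular to the list is read from these counts. PIK3IP1, an inhibitor of PI3K, was too low to test and had 0.928 ± 0.0377 in control and 0.453 ± 0.0538 with extract (SD, n = 4 each). CCNG2, which codes for the cell cycle inhibitor cyclin G2, fell from 1.86 ± 0.258 to 1.26 ± 0.328 with limma adjusted p = 0.036. Its groups overlapped, and the call was lost without control 2, 3 or 5 or extract 2 or 3 (limma adjusted p from 0.0249 to 0.0864 when each of the 8 libraries was left out). Centring, testing without a filter and pairing also ended it, with limma adjusted p = 0.564, 0.0563 and 0.106. So did fitting only libraries 2 to 4 without pairing (limma adjusted p = 0.0544).

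The list of PPAR targets and fatty acid oxidation held 3 listed genes of 26, and all 3 were tested. PDK4 and CPT1C were lower and CPT1B was higher. CPT1B, a mitochondrial carnitine palmitoyltransferase best known from muscle, rose from 1.38 ± 0.862 to 3.80 ± 1.25 (SD, n = 4 each; limma adjusted p = 0.00988), although control 2 at 2.62 was above extract 3 at 2.29. That call was lost when only libraries 2 to 4 were fitted without pairing (limma adjusted p = 0.058), and it held with them paired (limma adjusted p = 0.0114). CPT1C, a related gene best known from neurons, was at 1.80 ± 0.626 in control and 0.538 ± 0.298 with extract. It passed the filter through the control libraries alone, with the same limit as IRS1. The limma adjusted p was 0.0117 in the fit without a filter, which is no support for the reason given for IRS1. PPARA, PPARD and PPARG were not in the table.

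The direction of the 6 genes was the same under every setting tried. The groups overlapped in none of them, so only centring could have reversed a direction, and the sameness is no support. The size was least certain for SLC2A4. Its difference was −0.95 with a pseudocount of 0.1 and −0.29 after centring, against −0.56 as reported. For the others the values under these settings stayed within 1.5 times of those reported.

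**Figure D5:**
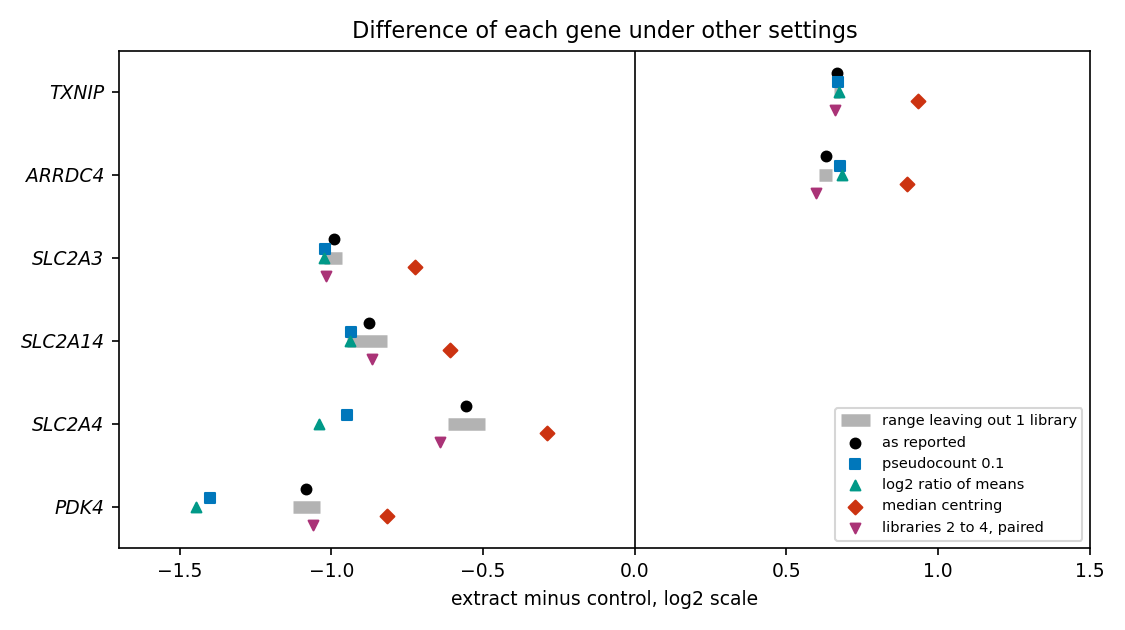
Extract minus control difference on the log2 scale (horizontal axis) of each gene as reported and under 4 other settings, with the range over fits that leave out 1 library as a grey bar. All values of TXNIP and ARRDC4 lie above 0 and all values of the other 4 genes below 0, and SLC2A4 spans −1.04 to −0.29.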

How the data were processed

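RNA-seq expression was analysed in 8 K562 libraries, 4 with extract and 4 control. HISAT2, StringTie and the build GRCh38 are named in the submitters' processing notes, without versions. The authors deposited 1 expression score per gene and library, already normalized in a unit not given in the sources used here. Per the file headers, the authors also deposited a fold change (ratio), its log2, and raw and adjusted p-values, from a tool not stated. Depth is unknown. Library sums, 13114 to 14134, cover listed genes only.

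The members and gene lists were chosen with earlier results of these data known. limma 3.58.1 (R 4.3.3, trended and robust moderation) was fitted to log2(value + 1) for the 750 genes reaching 1 in 4 or more libraries, with Benjamini-Hochberg adjustment over these. It was tested on simulated data. Named genes were the 6 members, every listed gene of the 13 glucose handling lists, and the 2 nearest profiles of each member, and values are given for those the text describes. Alternatives were another pseudocount, no filter, median centring, plain moderation, each library left out, and a fit pairing libraries 2 to 4 by number. Same-numbered libraries deviated together weakly (r of 0.101, 0.103 and 0.143 across genes, 3 of 3 pairs above 0.1), so the numbers were taken as pairs in that fit. The main fit was unpaired over all libraries, and the labels do not say that the numbers are pairs.

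Positions and transcripts are from GENCODE release 29 (GRCh38), where 1866 of 1950 gene IDs matched, and promoters from RefSeq (GRCh38.p14). Coding sequences were aligned end to end with Biopython 1.88. The planned protein comparison was replaced by coding sequences.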

Additional observations from a re-analysis of the deposited data

Results flagged for a closer look

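Of 42 groups of 4 libraries, from the members and the other listed genes of glucose handling, 2 had a single library standing well away from the rest, and about 2.1 would by chance. SLC2A3 was highest in extract 1 among the extract libraries (22.85, others 20.64 to 20.86), and this library was still below every control library. CA9 had 0.14 in extract 1 and was listed at 0 in the other extract libraries.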

How the results depend on the processing

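Leaving out 1 library at a time moved the log2 difference between 0.66 and 0.68 for TXNIP, 0.61 and 0.65 for ARRDC4, −1.02 and −0.96 for SLC2A3, −0.95 and −0.82 for SLC2A14, −0.62 and −0.49 for SLC2A4, and −1.13 and −1.04 for PDK4. Median centring gave 0.93, 0.90, −0.72, −0.61, −0.29 and −0.82 in that order, and it adds the same shift to every gene by construction. A pseudocount of 0.1 gave 0.68 for ARRDC4, −0.95 for SLC2A4 and −1.40 for PDK4, and the log2 ratio of means 0.68, −1.04 and −1.45, since a smaller pseudocount shrinks low values less. Over all tested genes 163 to 190 were higher and 369 to 394 lower with 1 library left out. Without a filter 314 were higher, over more genes tested, and with centring 241 were lower. With the replicate block on libraries 2 to 4 the counts were 161 and 354, the members' differences moved by less than 1 SD, and no call beside those of H6PD and CCNG2 was lost among the 6 other tested genes of glucose handling. On the same libraries without the block, an alternative chosen after seeing the data, the counts were 164 and 363. There the calls of CPT1B and CCNG2 were lost (limma adjusted p = 0.058 and 0.0544). No motif count changed when only the 250 bases before the start were searched. Depth is unknown, so no limit for low genes such as SLC2A4 can be given.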

Other observations

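The log2 fold changes that the authors' deposited table gives differ from log2 ratios of the group means, and among the 6 genes the gap was largest for SLC2A4. There the authors' deposited table gave −0.85, against −1.04 for the ratio of means. For TXNIP the values were 0.72 and 0.67, for ARRDC4 0.72 and 0.68, for SLC2A3 −0.997 and −1.02, for SLC2A14 −0.91 and −0.94, and for PDK4 −1.37 and −1.45. The deposited log2 value exceeded the log2 ratio of means by 0.03 at the median of the 750 tested genes, and by 0.19 for SLC2A4. For PCK1, an enzyme gene of gluconeogenesis, the sign differed: the authors' deposited table gave −0.87 while its group means were 0.413 in control and 0.415 with extract. INSR, the insulin receptor gene, was listed at 0.85 in the authors' deposited table, with overlapping groups and means of 0.403 and 0.483. DEPP1, a FOXO target, was listed at −1.39 with means of 0.325 and 0.123.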
